A study of Mus musculus with 16 samples.

Results

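A set of 10 genes that mark definitive and extraembryonic endoderm was followed on expression arrays of differentiating mouse embryonic stem cells (mESCs). They were Sox17, Foxa1, Foxa2, Cer1, Hhex, Afp, Ttr, Apoa1, Cxcr4 and Sox7. The arrays held 11 probes for these 10 genes, of 60273 probes in all. Only 1 of the 11 probes carried a member's symbol in the scanner files, and the other 10 carried a RefSeq accession there and were named through RefSeq. The cells were CGR8-Myh6-GFP mESCs, a line in which the promoter of the cardiac gene Myh6 drives a green fluorescent protein, and every sample came from this 1 line. They differentiated towards cardiomyocytes without feeder cells or LIF, and treatment began on day 4. Samples received the vehicle DMSO, 0.25 mg/ml of the hawthorn extract WS1442, or 0.1 mg/ml of its MeOH eluate, a fraction enriched in oligomeric procyanidins. RNA was collected after 6 h or 24 h, with 2 DMSO, 3 WS1442 and 3 MeOH eluate samples at each time point, 16 in all.

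Endoderm forms from mesendodermal cells that receive strong signals of Nodal, a ligand of the TGFβ superfamily. These signals act through Smad proteins and the cofactor Foxh1 and switch on Eomes, Mixl1, Foxa2 and Sox17. Mesoderm, including the heart, comes from neighbouring cells, and the anterior endoderm secretes factors that act on the forming heart. Several markers are shared with other tissues. Sox17, Sox7, Hhex and Cxcr4 are also made by endothelial cells, and Foxa2 by the node and notochord. Afp, Ttr and Apoa1 encode secreted proteins that the visceral endoderm and the liver release.

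The 2 Sox17 probes gave different results, 1 of them near background, so their sequences are shown before the values. The first was designed on the RefSeq transcript NM_011441 and the second on the cDNA clone AK051370. The probes of Cxcr4 and Afp are shown with them because both genes changed after 24 h. The letters are the probes as the scanner files give them, with no part in capitals.
Sox17, NM_011441: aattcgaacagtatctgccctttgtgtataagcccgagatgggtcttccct
Sox17, AK051370: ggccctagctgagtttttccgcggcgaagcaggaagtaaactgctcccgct
Cxcr4: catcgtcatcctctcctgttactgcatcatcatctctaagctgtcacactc
Afp: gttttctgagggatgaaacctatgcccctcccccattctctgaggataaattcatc
Both Sox17 probes are 51 bases long, and the longest run they share on either strand is 5 bases. Their GC content is 47.1% for NM_011441 and 58.8% for AK051370. The scanner files place the AK051370 probe on chromosome 1 of mm9, from 4487611 to 4487670, an interval longer than the 51 bases of the probe. They give no position for the other 10 probes. In GRCm38.p6, a later build whose coordinates cannot be set against these, RefSeq places Sox17 on chromosome 1 from 4490928 to 4497426. Whether the AK051370 probe reads the Sox17 transcript was not tested, and both probes are given below by their accession.

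Brightness on a 1-colour array measures the amount of a transcript, here as log2 signal after quantile normalization over the 16 arrays. Levels of different probes cannot be compared. Of the gene spots of an array, between 55.1% and 63% were well above background by the scanner's own call, and RNA integrity numbers lay between 8.6 and 10. All samples of a time point lay on 1 slide, so time point and slide cannot be told apart in levels, whereas treated and DMSO samples of a time point shared a slide. On both slides row 1 held DMSO arrays alone, so row and treatment cannot be told apart in comparisons with DMSO. WS1442 arrays lay in rows 2 and 3 and MeOH eluate arrays in rows 3 and 4. A bulk sample does not separate fewer cells of a type from less RNA per cell. The labels do not say whether replicates were separate cultures, and p-values then measure only the spread between these samples.

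Of the 11 member probes, 9 were bright enough to test, which required that all arrays of some group read well above background, and 2 of these were for Sox17. The other 2, for Ttr and Apoa1, were not well above background on any of the 16 arrays. Their normalized log2 signals lay between 1.39 and 2.05 for Ttr, which carries thyroxine and retinol in blood, and between 1.26 and 1.36 for Apoa1, the main protein of high-density lipoprotein. Of the markers of secreting endoderm, Afp was thus measured and Ttr and Apoa1 were not. In DMSO samples the probes of Cer1, Cxcr4, Hhex, Foxa1, Foxa2, Sox7, Afp and Sox17 (NM_011441) were well above background on all 4 arrays.

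**Figure D1:**
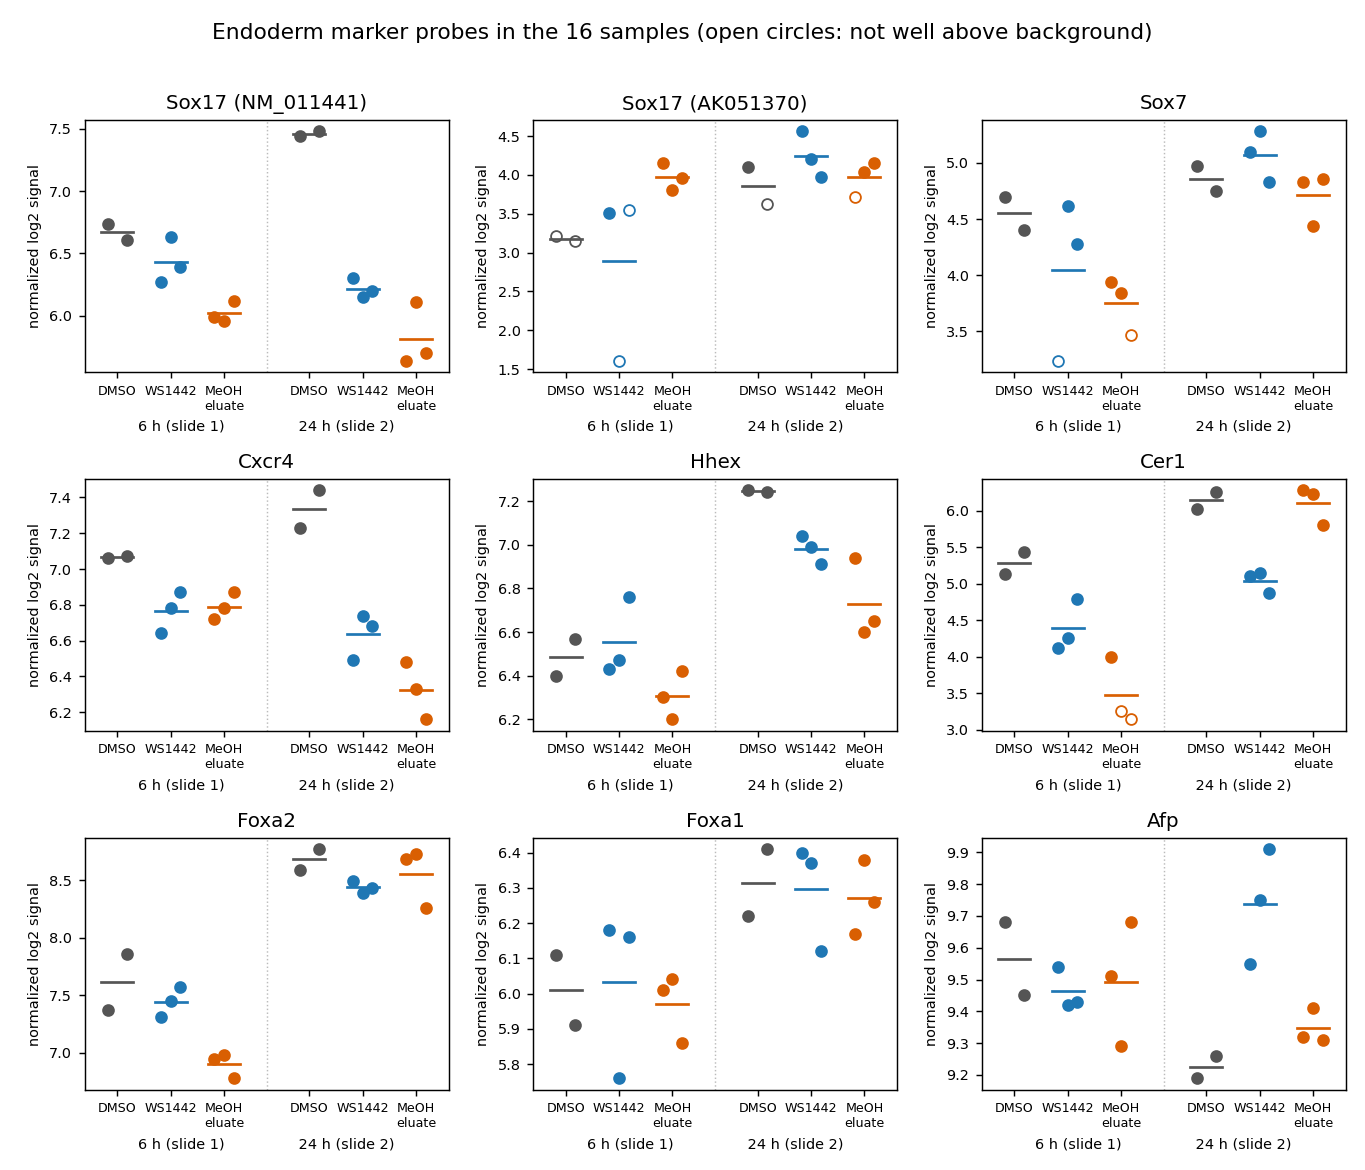
Normalized log2 signal (vertical axes, which differ between panels and do not start at 0) of the 9 tested endoderm marker probes in each of the 16 samples, by treatment and time point. Points are single arrays, open where not well above background, and bars are group means; Sox17 (NM_011441) after 24 h lies at 7.44 and 7.48 in DMSO and at or below 6.3 in all 6 treated samples.

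Called here are adjusted p-values under 0.05 from limma, corrected over all tested probes. A second rule takes its limits from the study's methods, a change of more than 2-fold with a p under 0.05, applied here to each treatment with limma's unadjusted p. After 6 h with WS1442, 0 of the 9 member probes were called by limma, against 4.68% of all probes, and 0 passed the 2-fold rule, against 0.455%. At an unadjusted p under 0.05, limma gave 2 of the 9, Cer1 and Cxcr4. The share of all probes at this unadjusted limit is not given, here or for such counts below. These counts are therefore not compared with all probes. After 6 h with MeOH eluate 3 were called, all lower, against 16.2% of all probes, and 1 passed the 2-fold rule, against 2.02%. After 24 h with WS1442 4 were called, 3 lower and 1 higher, against 23.5%, and 2 passed the 2-fold rule, against 2.01%. After 24 h with MeOH eluate 3 were called, all lower, against 17.1%, and 2 passed the 2-fold rule, against 2.92%. The median log2 (fold change) of the 9 probes was -0.24 and -0.27 at 6 h and -0.25 and -0.12 at 24 h, for WS1442 and MeOH eluate in turn. The medians of all probes were 0 and -0.01 at 6 h and 0.02 and 0.01 at 24 h. With so few members, these shares describe the markers and separate them from no other genes. Both treatments were set against the same DMSO samples, so their changes are not independent of each other.

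**Figure D2:**
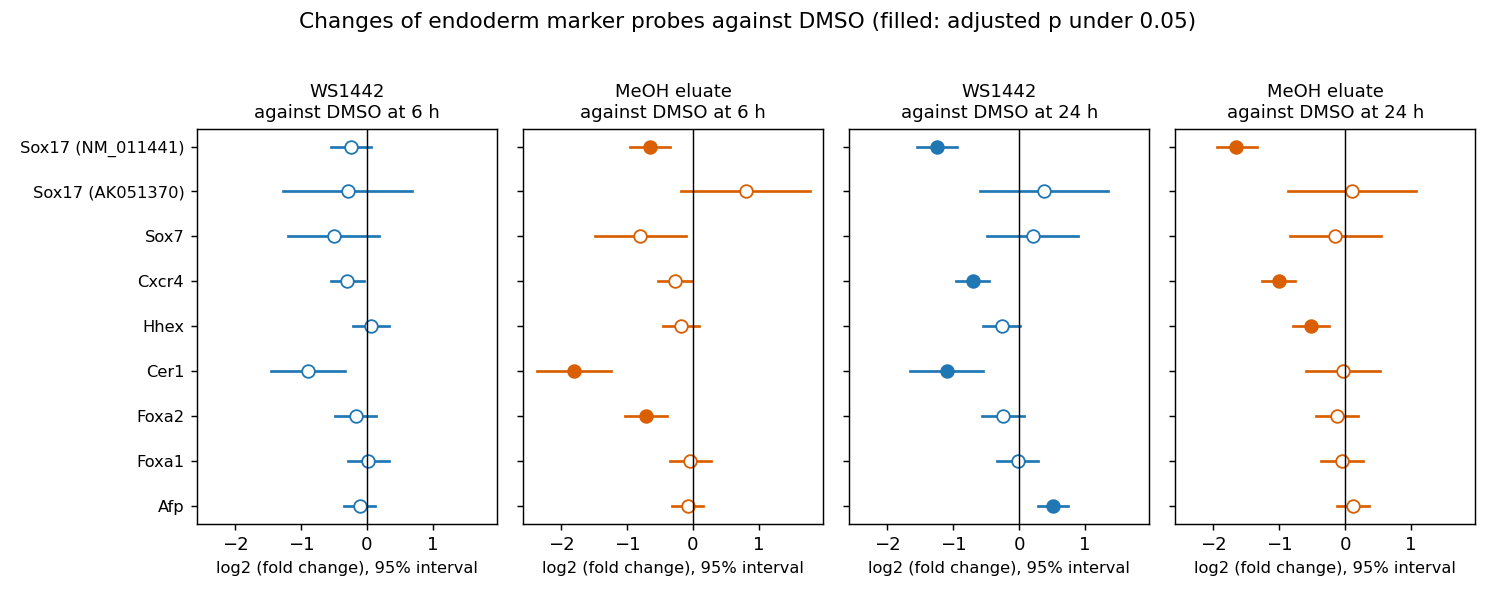
Log2 (fold change) against DMSO of the same time point (horizontal axis) with 95% intervals from limma, for the 9 tested probes, filled where the adjusted p was under 0.05. With MeOH eluate at 6 h Cer1 lies at -1.81, and at 24 h Sox17 (NM_011441) lies at -1.24 with WS1442 and at -1.65 with MeOH eluate.

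Sox17, a transcription factor of the Sox family that is needed for definitive endoderm, was lower with both treatments after 24 h. At 6 h the NM_011441 probe read 6.74 and 6.61 in DMSO, 6.27, 6.63 and 6.39 with WS1442, and 5.99, 5.96 and 6.12 with MeOH eluate. All 3 MeOH eluate samples lay below both DMSO samples, while 1 WS1442 sample lay among them. At 24 h it read 7.44 and 7.48 in DMSO, 6.3, 6.15 and 6.2 with WS1442, and 5.64, 6.11 and 5.7 with MeOH eluate. Every treated sample lay below both DMSO samples. The log2 (fold change) at 24 h was -1.24 ± 0.14 (SE) with WS1442, 2.37-fold lower (limma, adjusted p = 4.33e-05), and -1.65 ± 0.14 with MeOH eluate, 3.13-fold lower (limma, adjusted p = 1.89e-06). Under normexp background correction, which adds an offset and shrinks the changes of dim probes, these were -0.85 and -1.07, both still called. At 6 h it was -0.65 ± 0.14 with MeOH eluate (limma, adjusted p = 0.00626) and -0.24 ± 0.14 with WS1442 (limma, adjusted p = 0.397). Without DMSO 6 h replicate 1 the value for MeOH eluate at 6 h was -0.58, with a limma adjusted p of 0.0819. With normexp it was -0.39 and was still called.

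The AK051370 probe of Sox17 was dim and was not called in any comparison. It passed the filter on dim probes only through treated groups, MeOH eluate at 6 h and WS1442 at 24 h. It was not well above background in either DMSO sample at 6 h, where it read 3.21 and 3.15. With MeOH eluate at 6 h it read 4.16, 3.81 and 3.96, all well above background. These lay 1.64-fold above a bound set for DMSO, without a call (limma, adjusted p = 0.27). The probe passed the filter through this group, so no rise is drawn from these values. That bound takes, for each DMSO array, the dimmest signal still called well above background, or the probe's own signal if that was higher. With WS1442 at 6 h the 3 values were 3.51, 1.61 and 3.55, of which the first alone was well above background. At 24 h it read 4.1 and 3.62 in DMSO, 4.56, 4.21 and 3.97 with WS1442, and 3.71, 4.04 and 4.16 with MeOH eluate, and the groups overlapped. The changes at 24 h were 0.38 ± 0.46 and 0.11 ± 0.46, with 95% intervals of -0.59 to 1.35 and -0.87 to 1.08. The probe passed the filter through WS1442 at 24 h as well, and in DMSO at 24 h only 1 of 2 arrays was well above background. A fall from so dim a level could hardly be seen, so these intervals are not set against the NM_011441 probe. The difference between the 2 probes was not itself tested.

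Sox7, a relative of Sox17 found in primitive and parietal endoderm, was not called in any comparison. It read 4.7 and 4.4 in DMSO at 6 h, 3.24, 4.62 and 4.28 with WS1442, and 3.94, 3.84 and 3.47 with MeOH eluate. The lowest value of each treatment was not well above background. MeOH eluate samples lay below both DMSO samples, with a change of -0.8 ± 0.32 (limma, adjusted p = 0.111). At 24 h the groups overlapped, at 4.97 and 4.75 in DMSO, 5.1, 5.28 and 4.83 with WS1442, and 4.83, 4.44 and 4.86 with MeOH eluate.

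Cxcr4 encodes the receptor of the chemokine Cxcl12 and is used to sort definitive endoderm, though migrating mesoderm and endothelium carry it as well. At 24 h it read 7.23 and 7.44 in DMSO, 6.49, 6.74 and 6.68 with WS1442, and 6.48, 6.33 and 6.16 with MeOH eluate. No treated sample reached the DMSO samples, and those with MeOH eluate also lay below those with WS1442. It was lower by -0.7 ± 0.12 with WS1442, or 1.62-fold (limma, adjusted p = 0.000771), and by -1.01 ± 0.12 with MeOH eluate, or 2.01-fold (limma, adjusted p = 3.29e-05). At 6 h it read 7.06 and 7.07 in DMSO, 6.64, 6.78 and 6.87 with WS1442, and 6.72, 6.78 and 6.87 with MeOH eluate. No treated sample reached the DMSO samples at 6 h either, while the treatments overlapped with each other. The changes of -0.3 ± 0.12 and -0.27 ± 0.12 were not called (limma, adjusted p = 0.178 and 0.137).

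Hhex, a homeobox factor of anterior endoderm and later of liver, thyroid and blood vessels, read 7.25 and 7.24 in DMSO at 24 h. With WS1442 it read 7.04, 6.99 and 6.91, and with MeOH eluate 6.94, 6.6 and 6.65. All treated samples were below both DMSO samples, but only the change with MeOH eluate was called, at -0.52 ± 0.13 (limma, adjusted p = 0.0108). With WS1442 it was -0.26 ± 0.13 (limma, adjusted p = 0.153). Without DMSO 24 h replicate 1 the change with MeOH eluate was -0.51, with a limma adjusted p of 0.0681, and with normexp it was -0.33 and still called. At 6 h Hhex lay between 6.2 and 6.76 in all 8 samples and was not called.

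Because Sox17, Cxcr4 and Hhex are also endothelial genes, 16 endothelial genes were followed beside them. Their summed signal at 24 h was 12.71 to 12.72 in DMSO on the log2 scale, 12.21 with WS1442 and 11.92 to 12.02 with MeOH eluate. At 6 h it did not separate the groups in this way, with 11.95 to 12.05, 11.99 to 12.16 and 12.06 to 12.12. Of 15 tested genes 2 were called lower with WS1442 at 24 h and 4 with MeOH eluate, and 0 higher with either. Of all probes 12.2% and 8.21% were called lower in these comparisons, so the 2 genes with WS1442 are near that share. Among those that fell with both was Etv2, the factor that starts blood and endothelial fate, by -1.04 (limma, adjusted p = 1.26e-05) and -2.52 (limma, adjusted p = 4.1e-09). The median of the list was -0.02 and -0.14, against 0.05 and 0.01 for all genes. Its sum is led by its brightest genes, Etv2 among them. At 24 h all 15 genes were above background throughout in DMSO, on 2 arrays, and 13 in each treated group, on 3. Vwf passed the filter on dim probes only through DMSO groups, and Cdh5 only through DMSO and WS1442 at 24 h. The filter itself thus shaped this count. Vwf and Cdh5 are also among the 4 called lower with MeOH eluate. The part of endothelial cells in the falls of Sox17, Cxcr4 and Hhex was not tested. Of 8 blood progenitor genes 1 was called lower with WS1442 at 24 h, near the share of all probes. With MeOH eluate 2 were called lower and 1 higher, against 8.21% and 8.92% of all probes. Tal1, a factor of blood and endothelial precursors, changed by -1.19 (limma, adjusted p = 0.000157) and -1.89 (limma, adjusted p = 1.93e-06) at 24 h. Hbb-bh1 went the other way with MeOH eluate, by 1.45 (limma, adjusted p = 0.015).

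Cer1 and Foxa2 fell at the other time point with MeOH eluate. Cer1 encodes Cerberus, a secreted inhibitor of Nodal, BMP and Wnt ligands made by anterior endoderm. It read 5.13 and 5.43 in DMSO at 6 h, 4.12, 4.25 and 4.79 with WS1442, and 4, 3.26 and 3.14 with MeOH eluate. The 3 groups did not overlap, and with MeOH eluate only the first sample was well above background. The change was -1.81 ± 0.26 with MeOH eluate, 3.5-fold lower by these signals (limma, adjusted p = 0.000362), of which 2 of the 3 with MeOH eluate were not well above background, so that the size of the change is uncertain. With WS1442 it was -0.89 ± 0.26 and not called (limma, adjusted p = 0.0693). At 24 h Cer1 read 6.03 and 6.25 in DMSO, 5.1, 5.15 and 4.87 with WS1442, and 6.28, 6.23 and 5.8 with MeOH eluate. WS1442 samples now lay below all others, at -1.1 ± 0.26 (limma, adjusted p = 0.00742), while MeOH eluate samples overlapped with DMSO at -0.04 ± 0.26, with a 95% interval of -0.6 to 0.53. The size of these changes depended on the background correction. With normexp the change at 6 h with MeOH eluate was -0.5 and that at 24 h with WS1442 was -0.5, both still called.

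Foxa2, a forkhead factor that opens chromatin at endoderm genes, read 7.37 and 7.86 in DMSO at 6 h, 7.31, 7.45 and 7.57 with WS1442, and 6.95, 6.98 and 6.78 with MeOH eluate. MeOH eluate samples lay below all others, with a change of -0.71 ± 0.15 (limma, adjusted p = 0.00486). Here 1 DMSO sample decided the call. Without DMSO 6 h replicate 2 the change was -0.47, with a limma adjusted p of 0.0855. At 24 h Foxa2 read 8.59 and 8.77 in DMSO, 8.49, 8.39 and 8.43 with WS1442, and 8.68, 8.73 and 8.26 with MeOH eluate, and was not called. Foxa1, its close relative in gut endoderm, lay between 5.76 and 6.18 in the 8 samples at 6 h and between 6.12 and 6.41 at 24 h. Its changes against DMSO ran from -0.05 to 0.02, and their 95% intervals all lay within -0.36 to 0.33. Node and notochord genes were followed because Foxa2 marks these tissues too. Of 6 tested, 2 were called lower with MeOH eluate at 6 h, against 8.38% of all probes. The larger fall was that of T (Brachyury), at -1.29 (limma, adjusted p = 1.92e-06). The median of the 6 was 0.25, and Nog, Chrd, Foxj1 and Noto lay at 0.35, 0.31, 0.27 and 0.23, none called. In the other 3 comparisons with DMSO none was called. There limma's unadjusted p was under 0.05 for 2 with WS1442 at 6 h and for 0 with either treatment at 24 h.

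Afp, the alpha-fetoprotein of visceral endoderm and fetal liver, was the single member called higher against DMSO. At 24 h it read 9.19 and 9.26 in DMSO, 9.55, 9.75 and 9.91 with WS1442, and 9.32, 9.41 and 9.31 with MeOH eluate. WS1442 samples lay above all others, with a change of 0.52 ± 0.11, or 1.43-fold (limma, adjusted p = 0.00403). MeOH eluate samples also lay above DMSO, but by 0.12 ± 0.11, which was not called (limma, adjusted p = 0.547). At 6 h Afp read 9.68 and 9.45 in DMSO, 9.54, 9.42 and 9.43 with WS1442, and 9.51, 9.29 and 9.68 with MeOH eluate, with overlapping groups. The visceral endoderm list had 4 of 12 tested genes called higher and 1 lower with WS1442 at 24 h, and 1 higher and 2 lower with MeOH eluate. Of all probes 11.2% were called higher and 12.2% lower with WS1442, and 8.92% and 8.21% with MeOH eluate. Mttp, which loads lipid onto lipoproteins, changed by 0.85 with WS1442 (limma, adjusted p = 9.02e-05), and Lrp2, the endocytic receptor megalin, by 0.67 with MeOH eluate (limma, adjusted p = 0.000117). Spink1, a secreted protease inhibitor, went the other way, by -1.64 and -1.98 (limma, adjusted p = 0.000988 and 0.000216). At 6 h none of the 12 was called with either treatment, against 4.68% and 16.2% of all probes. Limma's unadjusted p was under 0.05 for 0 with WS1442 and 1 with MeOH eluate.

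The treatments were also compared with each other directly, at doses that differ, 0.25 mg/ml of WS1442 against 0.1 mg/ml of MeOH eluate. At 6 h 2 of 9 probes were called, against 11.6% of all probes. Cer1 was lower with MeOH eluate than with WS1442 by -0.92 ± 0.24 (limma, adjusted p = 0.0235) and Foxa2 by -0.54 ± 0.13 (limma, adjusted p = 0.0202). Neither held throughout. Without WS1442 6 h replicate 3, or without MeOH eluate 6 h replicate 3, neither was called. Without WS1442 6 h replicate 2, or MeOH eluate 6 h replicate 1 or 2, 1 was called, and without WS1442 6 h replicate 1, 4 were called. The difference in Cer1 rests on 2 MeOH eluate arrays that were not well above background, and with normexp it was -0.2 and not called. At 24 h 3 were called, against 13.6%. Cer1 was higher with MeOH eluate by 1.07 ± 0.24 (limma, adjusted p = 0.00818), Afp lower by -0.39 ± 0.1 (limma, adjusted p = 0.0175) and Sox17 (NM_011441) lower by -0.4 ± 0.13 (limma, adjusted p = 0.0486). Of these, Cer1 alone was called in all 6 fits that left out 1 sample of either group. Without WS1442 24 h replicate 2 or 3, or MeOH eluate 24 h replicate 3, it was the 1 probe called. Cxcr4 differed by -0.31 ± 0.11 without a call (limma, adjusted p = 0.0662), with a 95% interval of -0.54 to -0.08.

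Whether an effect at 24 h differed from that at 6 h was tested for each treatment. With WS1442 2 of 9 probes were called, against 11.4% of all probes, and with MeOH eluate 3, against 7.08%. The effect on Sox17 (NM_011441) was lower at 24 h than at 6 h by -1 ± 0.2 with WS1442 (limma, adjusted p = 0.00696) and by -0.99 ± 0.2 with MeOH eluate (limma, adjusted p = 0.00668). Cxcr4 followed with MeOH eluate, at -0.74 ± 0.17 (limma, adjusted p = 0.0143). Cer1 went the other way with MeOH eluate, at 1.77 ± 0.37 (limma, adjusted p = 0.00872). That size rests on the MeOH eluate samples at 6 h, of which 2 were not well above background, and with normexp it was 0.47, still called. Foxa2 had 0.59 ± 0.21, without a call (limma, adjusted p = 0.114). With WS1442 the effect on Afp was higher at 24 h, by 0.62 ± 0.16 (limma, adjusted p = 0.0215). The call for Cxcr4 was lost without DMSO 6 h replicate 1 or DMSO 24 h replicate 2, at -0.73 and -0.63, and that for Afp without DMSO 6 h replicate 1, DMSO 24 h replicate 1 or WS1442 24 h replicate 3, at 0.51, 0.59 and 0.53. Each of these differences also contains the 2 DMSO samples of each time point. Between DMSO samples at 6 h and 24 h, Sox17 (NM_011441) had means of 6.68 and 7.46, Foxa2 of 7.62 and 8.68, Cer1 of 5.28 and 6.14 and Hhex of 6.49 and 7.25, given with no test since slide and time cannot be told apart.

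**Figure D3:**
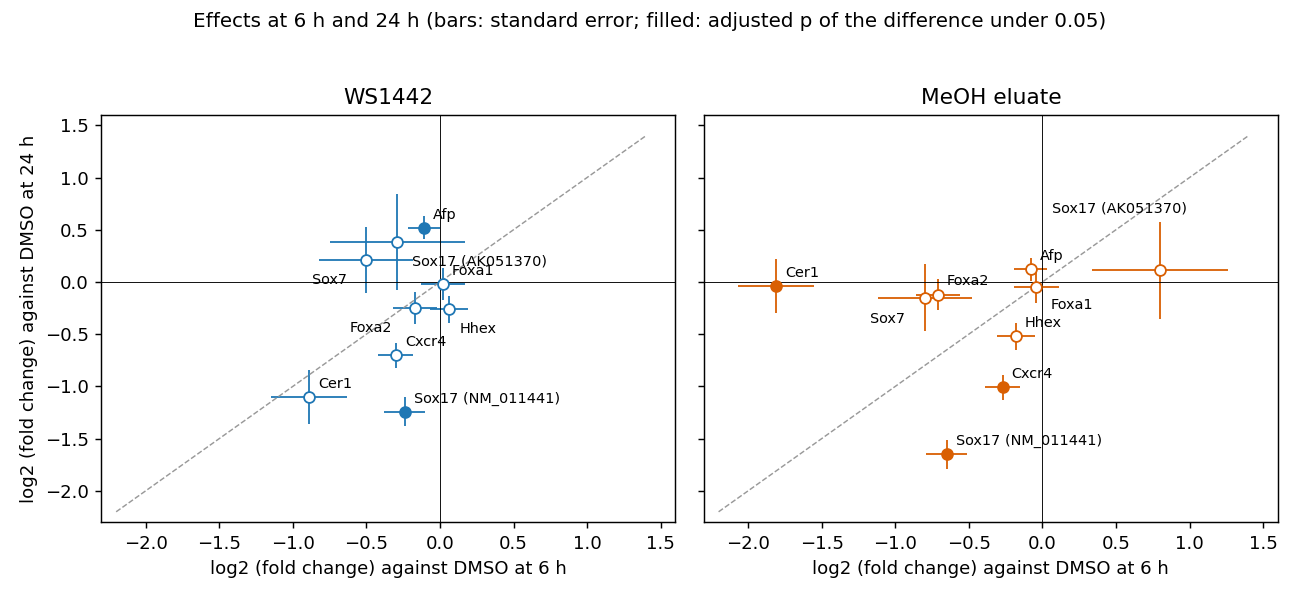
Log2 (fold change) against DMSO at 6 h (horizontal axis) and 24 h (vertical axis) of the 9 tested probes, with standard errors, for WS1442 and MeOH eluate. The dashed line marks equal effects and filled points differ between time points (limma, adjusted p under 0.05): Sox17 (NM_011441) lies below the line in both panels, and Cer1 lies above it with MeOH eluate by 1.77.

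Genes that act before the markers, Nodal and its receptors, cofactors and early targets, were followed as a list of 20, of which 19 were tested. At 6 h with WS1442, 9 were called lower and 1 higher, and with MeOH eluate 12 lower and 2 higher. Of all probes 1.15% and 8.38% were called lower in these comparisons, and 3.52% and 7.84% higher. The medians were -0.33 and -0.68, against -0.01 and 0 for all genes. With WS1442 the largest falls were those of Lefty1, a Nodal inhibitor that Nodal itself induces, at -1.06 (limma, adjusted p = 1.8e-05), and of Mixl1, a mesendoderm homeobox factor, at -0.99 (limma, adjusted p = 3.22e-06). With MeOH eluate they were Gsc, the homeobox factor goosecoid, at -2.66 (limma, adjusted p = 5.94e-09), and Mixl1, at -2.39 (limma, adjusted p = 2.37e-11). Acvr2b, a receptor for Nodal and activin, was higher with both, by 0.29 and 0.36 (limma, adjusted p = 0.00708 and 0.000301). Gsc read a mean of 11.95 ± 0.16 (SD, n = 2) in DMSO at 6 h and 9.29 ± 0.08 (SD, n = 3) with MeOH eluate.

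At 24 h the same list had 4 lower and 3 higher with WS1442, against 12.2% and 11.2% of all probes. With MeOH eluate it had 9 lower and 3 higher, against 8.21% and 8.92%. Its medians were -0.07 and -0.08, against 0.05 and 0.01 for all genes. Nodal itself was higher with both, by 0.47 (limma, adjusted p = 0.0185) and 0.84 (limma, adjusted p = 0.000406). Gata4, a zinc finger factor of both endoderm and heart, was lower by -0.72 (limma, adjusted p = 0.00098) and -1.38 (limma, adjusted p = 3.41e-06), and Gata6, its relative, by -1.48 with MeOH eluate (limma, adjusted p = 3.57e-06).

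**Figure D4:**
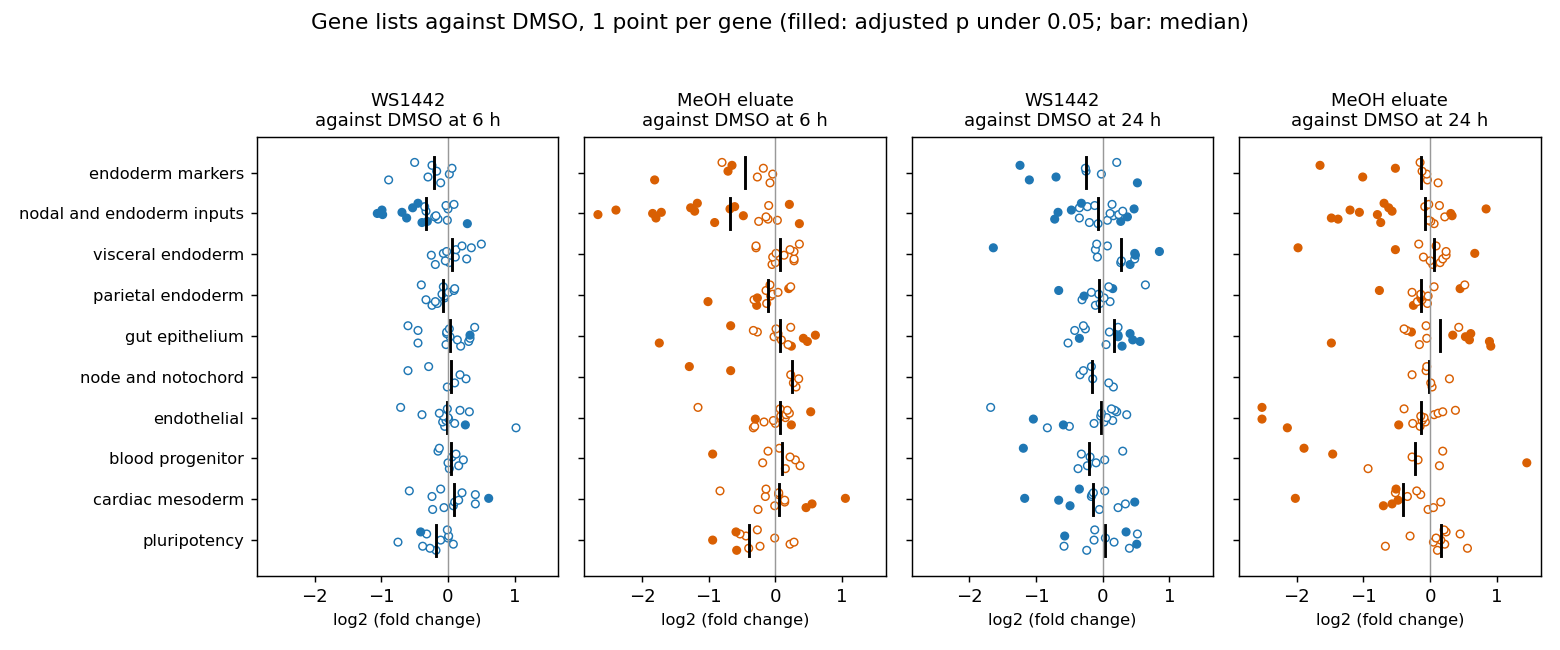
Log2 (fold change) against DMSO (horizontal axis) of the genes of 10 lists, 1 point per gene by its brightest tested probe, filled where the adjusted p was under 0.05, with the median as a bar. The list of Nodal signalling and early endoderm factors lies to the left at 6 h, its median at -0.33 with WS1442 and at -0.68 with MeOH eluate.

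Other lists gave the state of the cultures around these markers. Of 14 tested genes of gut and epithelium, 6 were called higher after 24 h with each treatment, with 1 lower with WS1442 and 2 with MeOH eluate. Of all probes 11.2% and 8.92% were called higher at 24 h with WS1442 and MeOH eluate, and 12.2% and 8.21% lower. At 6 h these shares were 3.52% and 7.84% higher, and 1.15% and 8.38% lower. They also stand beside the counts of the next lists. Cldn6, a claudin of tight junctions, rose by 0.56 and 0.89 (limma, adjusted p = 0.000765 and 1.32e-05), and Cdh1, the adhesion protein E-cadherin, by 0.91 with MeOH eluate (limma, adjusted p = 6.68e-07). Undifferentiated cells also express both genes. Some genes of the list were lower. Cdx2, a homeobox factor of hindgut and trophoblast, was at least 2-fold lower with MeOH eluate at 24 h (limma, adjusted p = 0.00523), where no array was well above background, and changed by -1.74 at 6 h (limma, adjusted p = 0.00243), where 1 of 3 was. Foxa3, a forkhead factor of gut and liver, changed by -0.35 with WS1442 at 24 h (limma, adjusted p = 0.0229), and Nkx2-1, a factor of thyroid, lung and forebrain, by -0.28 with MeOH eluate (limma, adjusted p = 0.0441). At 6 h the list had 1 called higher with WS1442, and 4 higher and 2 lower with MeOH eluate. Of 12 tested parietal endoderm genes none was called with WS1442 at 6 h (3 by limma's unadjusted p under 0.05), and 1 was higher and 3 lower with MeOH eluate. At 24 h 1 was higher and 2 lower with WS1442, and 1 higher and 3 lower with MeOH eluate. Snai1, a repressor of epithelial genes, fell by -0.66 and -0.76 at 24 h (limma, adjusted p = 0.000563 and 0.000169). Cardiac mesoderm had 4 of 12 lower and 1 higher with WS1442 at 24 h, and 5 lower with MeOH eluate, led by Myl7, an atrial myosin light chain, at -1.17 and -2.02 (limma, adjusted p = 0.000159 and 7.94e-07). At 6 h 1 and 3 of its genes were called higher and none lower, and Myl7 was higher by 0.61 and 1.05 (limma, adjusted p = 0.0414 and 0.000509). Pluripotency genes had 1 and 3 of 11 lower at 6 h, and at 24 h 2 higher and 1 lower with WS1442. With MeOH eluate at 24 h limma called 0 of the 11, and 4 had an unadjusted p under 0.05.

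The genes whose levels ran most like those of a called member were found over the 16 arrays after subtracting the mean of each time point. They are a description, and all arrays of a treatment enter together. For Sox17 (NM_011441) they were Naa10, Itga9 and Tbx2, with Pearson's r of 0.95, 0.948 and 0.943. For Cxcr4 they were Rpl38, Mthfd2 and Snora68, at 0.949, 0.936 and 0.936. For Hhex they were Tent4b, Usp16 and Ssb, at 0.937, 0.931 and 0.913. For Cer1 they were Zfp672, Vax2 and Dnttip1, at 0.924, 0.913 and 0.9. For Foxa2 they were Nmi, Epha1 and Dnd1, at 0.929, 0.918 and 0.913. For Afp they were Per1, Mbd5 and Dock3, at 0.972, 0.957 and 0.95.

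Promoters were read for 7 of the 10 members, with 9 windows of 250 bases before the start of transcription in GRCm38.p6. No window was read for Sox17, Sox7 or Ttr. They are shown for Cer1, Cxcr4 and Afp. With MeOH eluate Cer1 was called lower at 6 h and Cxcr4 at 24 h. With WS1442 both were called lower at 24 h, and Afp was called higher. Capitals mark matches, on either strand, to 5 motifs. These were the forkhead motif TGTTTAC, the Foxh1 motif TGTNNATT, the Sox motif AACAAT, the T-box motif TCACACC and the TATA motif TATAAA. The motifs can overlap one another.
Cer1: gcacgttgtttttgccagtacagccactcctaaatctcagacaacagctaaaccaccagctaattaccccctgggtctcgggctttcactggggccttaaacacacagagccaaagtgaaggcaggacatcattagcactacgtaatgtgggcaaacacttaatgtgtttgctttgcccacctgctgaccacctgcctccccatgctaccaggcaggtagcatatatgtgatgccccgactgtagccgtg
Cxcr4: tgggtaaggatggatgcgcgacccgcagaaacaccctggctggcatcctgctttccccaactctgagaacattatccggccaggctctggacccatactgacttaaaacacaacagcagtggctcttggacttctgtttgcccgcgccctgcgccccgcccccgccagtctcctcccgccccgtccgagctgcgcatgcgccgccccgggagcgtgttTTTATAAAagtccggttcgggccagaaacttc
Afp: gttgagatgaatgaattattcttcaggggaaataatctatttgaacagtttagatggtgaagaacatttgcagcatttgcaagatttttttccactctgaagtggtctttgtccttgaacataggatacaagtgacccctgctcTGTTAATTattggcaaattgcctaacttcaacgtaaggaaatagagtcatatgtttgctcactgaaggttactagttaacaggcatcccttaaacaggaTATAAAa
The windows are chr4:82885152-82885401 on the minus strand for Cer1, chr1:128592300-128592549 on the minus strand for Cxcr4, and chr5:90490464-90490713 on the plus strand for Afp. The Cer1 window held none of the 5 motifs, the Cxcr4 window held TATA matches on both strands that overlap, and the Afp window held 1 Foxh1 match and 1 TATA match. Among the other members, a window of Foxa2 held a TATA match and that of Foxa1 a forkhead match, and those of Hhex and Apoa1 held none. Of all 32851 promoter windows of this length, 3.2% held the forkhead motif, 10.9% the Foxh1 motif, 9.4% the Sox motif, 3.3% the T-box motif and 12.4% the TATA motif.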

How the data were processed

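RNA of 16 samples was labelled with Cy3 and hybridised to 1-colour Agilent arrays. The deposited scanner files hold intensities per spot, which the scanner's software had corrected for background but which were not yet normalized. The authors also gave a table of linear quantile-normalized intensities, and each of its 16 columns correlated best with its own array (lowest r 0.998). Members were matched by gene name or by unversioned RefSeq accession (GRCm38.p6). Spots marked non-uniform (3 to 25 per array) were set missing and 300 probes spotted 5 times were averaged. Log2 intensities were quantile normalized, 36729 probes were kept because all arrays of some group read well above background, and 6 group means were fitted with limma 3.58.1 (R 4.3.3; eBayes with trend, Benjamini-Hochberg over all kept probes). Where spots were missing a fit used the remaining samples; this left out no member value. Tables and figures were made with Python 3.11.15. The fit was tested on simulated data. The number of arrays limits the precision. Named are all members, at most 2 rises and 2 falls per other list and comparison, and the 3 genes most like each called member. Members, lists and this rule were chosen with earlier results of these data known. Alternatives covered scaling, background, filter, values, test, blocks, weights and left-out samples.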

Additional observations from a re-analysis of the deposited data

Results flagged for a closer look

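For 4 members the effect of a treatment against DMSO differed between 24 h and 6 h by a test of the difference itself (limma, adjusted over all probes). The differences, as log2 (fold change) at 24 h minus that at 6 h, were -1 with WS1442 and -0.99 with MeOH eluate for Sox17 (NM_011441), -0.74 with MeOH eluate for Cxcr4, 1.77 with MeOH eluate for Cer1 and 0.62 with WS1442 for Afp. The value for Cer1 uses MeOH eluate samples at 6 h of which 2 of 3 were not well above background, and with normexp it was 0.47. Each rests on 2 DMSO samples per time point. The value for Cxcr4 was not called without DMSO 6 h replicate 1 (-0.73, limma adjusted p = 0.0595) or without DMSO 24 h replicate 2 (-0.63, limma adjusted p = 0.0566), nor with the replicate number as a block (-0.66, limma adjusted p = 0.0724). That for Afp was not called without DMSO 6 h replicate 1 (0.51), DMSO 24 h replicate 1 (0.59) or WS1442 24 h replicate 3 (0.53).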

How the results depend on the processing

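The number of member probes called kept within 1.5 times under the other settings, with these exceptions. For MeOH eluate against WS1442 at 6 h, 2 probes became 1 with normexp, 1 without the filter on dim probes, 0 when each time point was fitted alone, 4 with array weights and 1 with the replicate number as a block. By the methods' t-test with Benjamini-Hochberg adjustment, 0 member probes were called in each of the 6 comparisons within a time point. That test called few probes of any kind. Against DMSO it called 1 and 5 of all probes at 6 h, and 7 and 203 at 24 h, for WS1442 and MeOH eluate in turn. Between the treatments it called 6 at 6 h and 245 at 24 h. With a change over 2-fold and an unadjusted p under 0.05 it gave 0 and 1 member probes at 6 h, and 2 and 2 at 24 h, for WS1442 and MeOH eluate against DMSO. Its unadjusted p was under 0.05 for 1, 6, 5 and 3 member probes in these 4 comparisons and for 2 and 2 between the treatments. Shares of all probes at these unadjusted limits are not given. Leaving out 1 sample gave 2 to 3 calls for MeOH eluate against DMSO at 6 h, 2 to 3 at 24 h, 0 to 4 for MeOH eluate against WS1442 at 6 h, 1 to 3 at 24 h, 1 to 2 for the WS1442 effect at 24 h minus 6 h and 2 to 4 for that of MeOH eluate. No called probe changed direction under any alternative. The difference in Sox17 (NM_011441) between treatments at 24 h lost its call under most settings, with -0.4 and a limma adjusted p of 0.0501 on the authors' table.

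Normexp shrank the changes of dim probes most. With MeOH eluate at 6 h, Cer1 against DMSO went from -1.81 to -0.5 and Sox7 from -0.8 to -0.21. Sox17 (NM_011441), well above background on every array, shrank less. At 24 h it went from -1.24 to -0.85 with WS1442 and from -1.65 to -1.07 with MeOH eluate. Replicate numbers did not pair the samples, since 1 of 14 same-numbered pairs correlated above 0.1 (r from -0.22 to 0.28). With the replicate block, the 4 comparisons with DMSO gave 0, 3, 4 and 3 called member probes, as without it, and 2 in place of 3 for the MeOH eluate effect at 24 h minus 6 h, where Cxcr4 lost its call.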
